A study of Mus musculus with 5 samples.

Results

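The genes described here encode ephrins, semaphorins, plexins and the other classical guidance families: Eph receptors and ephrins, semaphorins with plexins and neuropilins, Slits with Robo receptors, and netrins. They were taken by symbol from a table of 17657 genes, which lists 62 of them. The symbol patterns use no expression value, though they were chosen with earlier results of these data known. The KO cells (2 libraries) were epidermal stem cells from the skin of Angptl4 knockout mice, and the WT cells (3 libraries) were the same kind of cells from wild-type mice. All 5 libraries are labelled as C57BL/6, male and 8 weeks, and all cells had been grown in the keratinocyte medium KGM2, so the values describe cultured cells and not intact skin. The labels do not say whether the libraries of a group come from separate animals or cultures, nor which part of Angptl4 was removed; the p-values below therefore reflect the scatter among these 5 libraries, possibly technical scatter alone.

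These families were first known for steering growing axons, and epithelia use the same proteins to sort cells, set boundaries and adjust adhesion. Ephrins are bound to the cell surface, the A class by a lipid anchor and the B class by a transmembrane segment, and they signal through Eph receptor tyrosine kinases on the neighbouring cell. Semaphorins signal through plexins, and the secreted class 3 members mostly need a neuropilin as co-receptor. Slits are secreted ligands of Robo receptors, and netrins are laminin-related secreted proteins. In epidermis, ephrin-A1 and its receptor EphA2 are known for restraining keratinocyte growth and favouring differentiation.

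The libraries held 20283084 to 20773407 expected counts, so 1 CPM (a count scaled to library size) stands for about 20 counts. The targeted gene, Angptl4, stood at 0.86 and 1.11 TPM (a level scaled by transcript length and library) in KO1 and KO2, against 4.34 to 7.34 TPM in the WT libraries. Its log2 change was -2.56 ± 0.32 (SE; adjusted p = 0.00458). The call was lost when each group was given its own spread, where the adjusted p was 0.127 (5.68e-09 to 0.127 over the 15 alternative settings). All 9 markers of basal keratinocytes were detected, and 3 rose, 2 fell and 4 did not pass. Their sum (45667 and 36073 TPM in KO1 and KO2, 35311 to 36495 TPM in WT) was nearly all Krt5 and Krt14, which did not pass, while Trp63 fell to 189 and 164 TPM in KO, against 332 to 333 TPM in WT, Itga6 fell by 0.91 on the log2 scale, and Krt15, Itgb4 and Cdh1 rose. KO libraries varied more than WT libraries (biological coefficient of variation 28.9% in KO and 5.21% in WT). The first and second principal components held 72.8% and 18.7% of the variance.

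More guidance genes rose than fell in the KO cells, with ephrin-A ligands, EphB receptors, plexins and Slits among those that rose and class 3 semaphorins among those that fell. A gene was called changed at an adjusted p under 0.05 in edgeR's quasi-likelihood test of KO against WT over all 12957 genes with enough counts. Of the 62 guidance genes 47 were tested; 22 rose, 9 fell and 16 did not pass. That is 46.8% higher and 19.1% lower, where 20.4% of all tested genes were called higher and 20.4% lower. Their median log2 change was 0.55, against 0.02 over all tested genes. A rise of at least 2-fold was called for 13 of them (8.83% of all tested genes) and a fall of that size for 2, Sema3e and Sema6d (5.12% of all tested genes). The 15 genes left untested had too few counts and reached at most 0.25 TPM in any library. They are Epha3, Epha7, Ephb1, Sema3a, Sema3d, Sema3g, Sema4f, Sema5b, Plxna4, Plxnb3, Plxnc1, Robo4, Ntn1, Ntn3 and Ntn5.

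All 31 called guidance genes had KO libraries clear of the WT libraries, which a call itself favours, so this is no separate support. Called or not, 66.4% of all tested genes had libraries clear in either direction. Among the 47 tested, both KO libraries lay above every WT library in 25 and below every one in 12, against 32.5% and 34.0% of all tested genes. How many passed depended on the libraries. Leaving out a KO library leaves a lone KO library, so the spread then comes from the WT libraries alone. Adjusted p and counts from those fits, and ranges that include them, carry no KO scatter. The count of higher members was 14, 17 and 15 without WT1, WT2 or WT3 (7.62%, 8.81% and 8.68% of all tested genes), and 22 and 27 without KO1 or KO2 (29.3% and 30.0%). The count of lower members was 2, 3 and 2 without WT1, WT2 or WT3 (7.6%, 8.94% and 8.77%), and 14 and 10 without KO1 or KO2 (30.5% and 30.9%). With a spread of its own for each group, 18 rose and 4 fell (12.5% and 12.1% of all tested genes). The 9 calls lost in that fit were those of Epha1, Epha4, Sema3f, Sema4a, Sema6c, Sema6d, Plxna1, Plxnd1 and Nrp2. In bulk RNA, fewer cells of a type and less RNA per cell cannot be told apart.

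**Figure D1:**
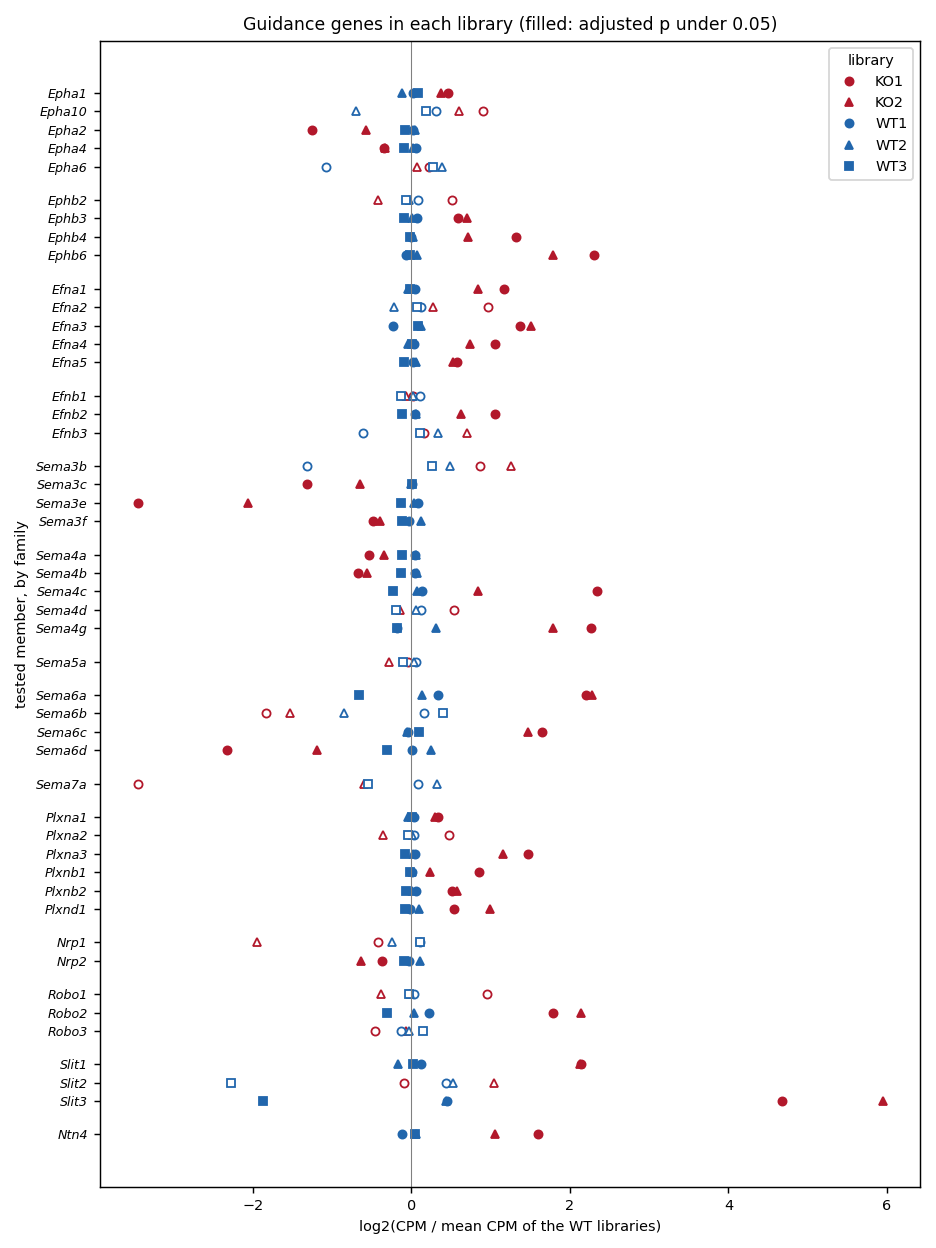
Level of each of the 47 tested guidance genes in each library, as log2 of its CPM over the mean CPM of the WT libraries, grouped by family down the page. Red points are KO1 and KO2, blue points WT1 to WT3, and filled points mark genes with an adjusted p under 0.05. Slit3 lies farthest to the right (log2 change 5.40), and the ephrin-A and EphB rows lie mostly right of 0 and Sema3c, Sema3e and Sema3f left of it.

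Ephrin-A ligands were higher in the KO cells as a family. Of 5 members 4 rose, 0 fell and 1 (Efna2) did not pass, against 20.4% higher and 20.4% lower over all tested genes. All 5 had both KO libraries above every WT library, as did 32.5% of all tested genes. Summed over the family, ephrin-A transcripts stood at 283 and 251 TPM in KO1 and KO2, against 131, 131 and 131 TPM in WT1, WT2 and WT3. The same 4 of 5 passed without WT1, WT2 or WT3, where 7.62%, 8.81% and 8.68% of all tested genes were called higher.

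Efna1, the ligand best known for engaging EphA2 in keratinocytes, was at 129 and 103 TPM in KO1 and KO2, against 60.5, 57.2 and 57.6 TPM in the WT libraries. This is a log2 rise of 1.01 ± 0.11 (SE; adjusted p = 0.00363), with the groups well apart. Efna3 was at 82.9 and 89.7 TPM in KO1 and KO2, against 29.5, 34.5 and 34.4 TPM in WT, a log2 rise of 1.45 ± 0.13 (adjusted p = 0.00253) and the largest of the called ephrin genes. Efna4 was at 35.5 and 28.7 TPM in KO1 and KO2, against 17.7, 16.9 and 17.4 TPM in WT, a log2 rise of 0.91 ± 0.12 (adjusted p = 0.00502). These 3 calls held in all 15 alternative settings. Efna5, another lipid-anchored ligand, at 23.6 and 22.4 TPM in KO and 16.2, 16.6 and 14.9 TPM in WT, rose less (log2 0.55 ± 0.08, adjusted p = 0.00575). Its call was lost when replicate number was added to the edgeR model as a block (adjusted p = 0.0731). Efna2 was at 12.3 and 7.57 TPM in KO1 and KO2, against 5.47 to 6.90 TPM in WT (log2 0.66 ± 0.24, adjusted p = 0.0797, up to 0.215 over its alternatives). Its log2 change was 0.26 without KO1 and 0.98 without KO2.

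Efna1, Efna3 and Efna4 sit side by side on chromosome 3 (GRCm38.p6, 89271730 to 89347831 as the table gives them), a stretch of 76.1 kb. The table puts Efna3 and Efna4 on the plus strand and RefSeq on the minus strand, and the RefSeq promoter window of Efna4 (to 89338278) ends inside the span the table lists for it (89333393 to 89347831), so the length of the stretch rests on the table's spans. Because the 3 moved together, the other genes within 100 kb of that stretch were read as well. Of 23 such genes 22 were tested. Of these 8 rose, 2 fell and 12 did not pass, with a median log2 change of 0.34. Over all tested genes 20.4% rose and 20.4% fell, with a median of 0.02. Adam15, a membrane metalloprotease whose listed span overlaps that of Efna4 but starts (89339640) beyond the end of that window, rose by 0.56, less than any of the 3 ephrins. Dpm3 and Slc50a1, beside Efna1, did not pass (log2 changes 0.39 and 0.21). Cks1b, a cell cycle gene farther off, fell by 0.93. In GENCODE M21, 14.1% of the exon bases of Efna3 and 10.5% of those of Efna4 lie opposite exons of Gm15998 and 4731419I09Rik. No source used here gives the strand setting of the counting, so how far reads of those bases entered the ephrin values is not known.

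**Figure D2:**
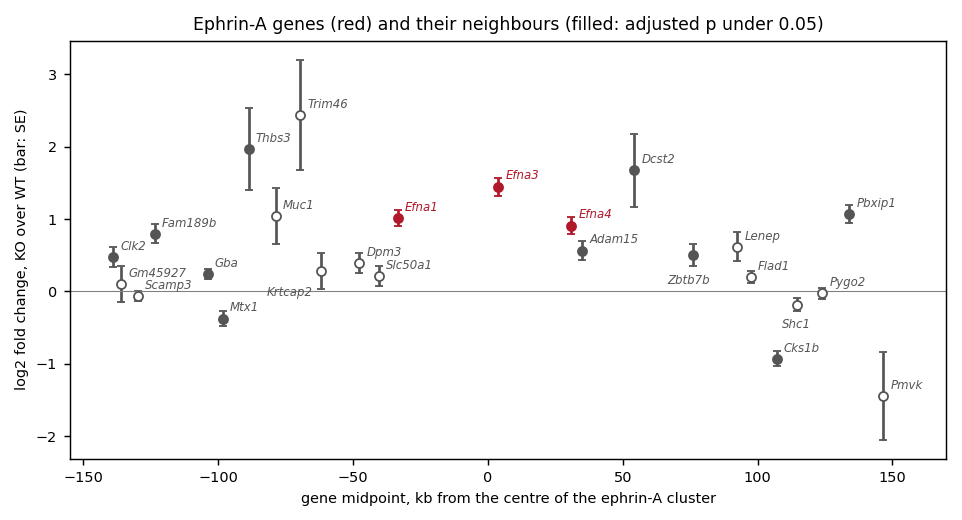
Log2 fold change (KO over WT, bars are SE) of the ephrin-A genes of chromosome 3 in red and of the tested genes within 100 kb in grey, by the distance in kb of each gene's midpoint from the centre of the ephrin-A stretch. Filled points have an adjusted p under 0.05; the red points lie at 1.01, 1.45 and 0.91, and the genes around them spread from Pmvk at -1.44 to Trim46 at 2.44, neither of which passed.

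The promoters of these 3 ligand genes and of Epha2, the receptor gene that moved the other way, are printed to show the sequence at their start sites. They come from RefSeq (GRCm38.p6; 250 bases before to 50 after the start, first listed window, 5′ to 3′ on the gene's strand) at chr3:89280902-89281201 (minus strand), chr3:89322890-89323189 (minus), chr3:89337979-89338278 (minus) and chr4:141300971-141301270 (plus). Capitals mark the hypoxia response core, ACGTG or GCGTG on either strand, and the AP-1 site TGANTCA was searched too; these motifs were chosen after the values were seen, and they do not contain one another.
Efna1: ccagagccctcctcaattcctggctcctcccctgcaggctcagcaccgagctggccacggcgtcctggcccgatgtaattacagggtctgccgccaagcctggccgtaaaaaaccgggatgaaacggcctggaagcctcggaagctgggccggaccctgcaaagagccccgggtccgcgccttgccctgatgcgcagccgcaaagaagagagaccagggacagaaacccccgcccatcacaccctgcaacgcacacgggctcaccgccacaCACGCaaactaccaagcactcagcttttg
Efna3: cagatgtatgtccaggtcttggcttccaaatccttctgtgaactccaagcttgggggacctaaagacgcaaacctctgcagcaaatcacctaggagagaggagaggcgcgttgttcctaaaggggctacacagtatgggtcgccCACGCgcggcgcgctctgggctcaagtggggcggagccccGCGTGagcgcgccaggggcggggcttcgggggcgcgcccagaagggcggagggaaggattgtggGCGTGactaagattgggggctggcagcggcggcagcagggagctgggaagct
Efna4: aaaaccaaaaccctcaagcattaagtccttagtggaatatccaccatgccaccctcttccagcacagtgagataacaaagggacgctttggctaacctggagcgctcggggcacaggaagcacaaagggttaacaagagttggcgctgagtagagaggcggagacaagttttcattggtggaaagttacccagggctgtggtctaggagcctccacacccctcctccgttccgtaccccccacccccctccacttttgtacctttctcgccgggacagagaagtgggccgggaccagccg
Epha2: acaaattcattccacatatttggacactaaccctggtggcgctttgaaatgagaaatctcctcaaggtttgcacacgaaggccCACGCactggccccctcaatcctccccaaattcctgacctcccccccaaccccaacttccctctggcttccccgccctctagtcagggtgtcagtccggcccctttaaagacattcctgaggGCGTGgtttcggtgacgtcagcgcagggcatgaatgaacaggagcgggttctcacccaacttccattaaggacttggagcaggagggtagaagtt
The core occurs 1 time in the Efna1 window, 3 times in Efna3, 0 times in Efna4 and 2 times in Epha2, and the AP-1 site 0 times in these 4 windows. Efna1 and Efna3 have 2 listed windows each, and these counts are for the first alone. Among all 32851 promoter windows of this length 43.8% hold the core and 7.81% the AP-1 site. Of the 47 tested guidance genes 41 had a window, 27 of them with the core (65.9%). Among the 22 that rose 19 had one, 11 with the core (57.9%). Of the 9 that fell 8 had one, 7 with the core (87.5%). The windows of tested guidance genes are richer in G and C (median 65.3%) than all windows (52.7%).

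Of 3 ephrin-B ligands 1 rose, 0 fell and 2 did not pass, against 20.4% higher and 20.4% lower over all tested genes. Efnb1, by far the most abundant of them, was at 124 and 118 TPM in KO1 and KO2, against 134, 127 and 113 TPM in WT, with the groups overlapping (log2 -0.02 ± 0.10, adjusted p = 0.872). The sign of that change turned with 3 settings. Efnb2, the preferred ligand of EphB4, was at 14.6 and 10.9 TPM in KO, against 7.28, 7.43 and 6.52 TPM in WT, a log2 rise of 0.86 ± 0.15 (adjusted p = 0.00998). Its call was lost without WT1 or WT3 (adjusted p = 0.0516 and 0.0522; range over its alternatives 6.01e-05 to 0.0597). Efnb3 was near 1 TPM in both groups (0.95 and 1.44 TPM in KO, 0.55 to 1.12 TPM in WT) and did not pass.

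**Figure D3:**
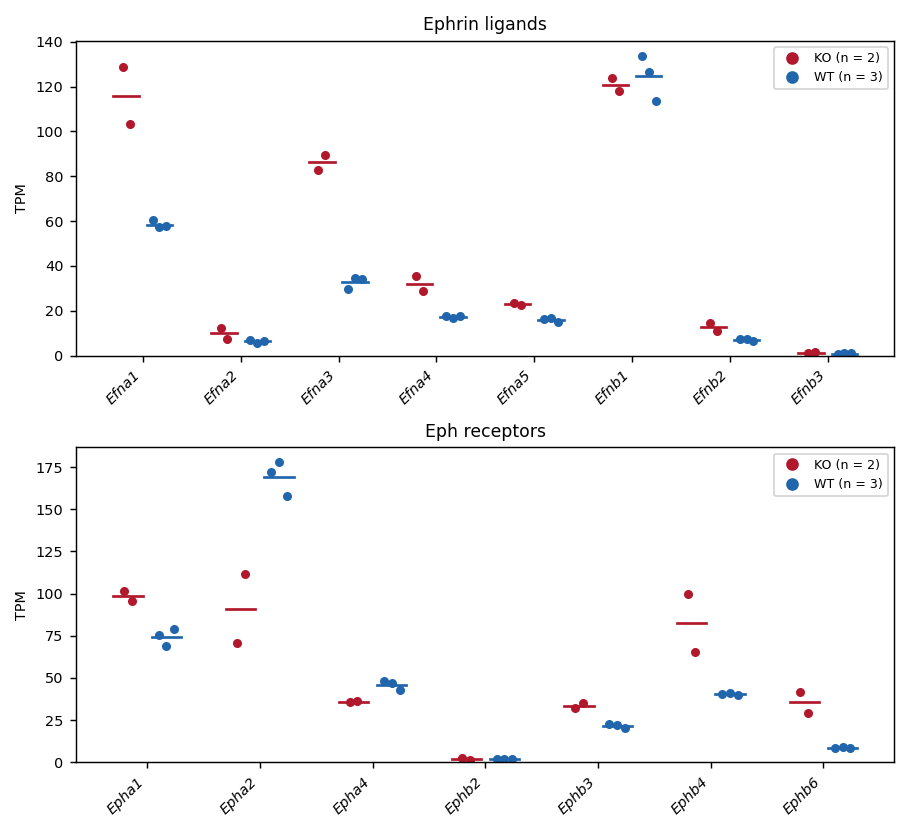
TPM of each ephrin ligand (top) and of the Eph receptors with more than 1 TPM on average (bottom), with KO libraries in red left of WT libraries in blue. Points are libraries and bars group means (KO n = 2, WT n = 3). Efna1, Efna3 and Efna4 lie higher in KO, Efnb1 overlaps, Epha2 lies lower (means 91.1 in KO and 169 in WT) and Ephb4 and Ephb6 higher.

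The makeup of the Eph receptors differed between KO and WT cells, with less EphA and more EphB transcript in KO. All Eph receptors together stood at 385 and 376 TPM in KO1 and KO2, against 370, 369 and 352 TPM in WT. EphA receptors made up 209 and 245 TPM of this in KO, against 297, 294 and 281 TPM in WT. EphB receptors made up 176 and 131 TPM in KO, against 73.4, 74.2 and 70.5 TPM in WT. Of 9 Eph receptor genes tested 4 rose, 2 fell and 3 did not pass, against 20.4% higher and 20.4% lower over all tested genes.

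Epha2 (chromosome 4, 141301221 to 141329384), a receptor kinase abundant in epidermis, fell to 70.6 and 112 TPM in KO1 and KO2, against 172, 178 and 158 TPM in WT. The groups did not overlap, and KO1 lay well below KO2 (log2 -0.88 ± 0.21, 1.83-fold lower, adjusted p = 0.0239). Its share of all EphA transcripts was 33.8% and 45.6% in KO1 and KO2, against 58.0%, 60.4% and 56.1% in WT. Epha1, also of the epidermis, was at 101 and 95.5 TPM in KO, against 75.5, 68.8 and 79.2 TPM in WT, and rose by 0.42 ± 0.09 (adjusted p = 0.0176). Epha1 therefore stood above Epha2 in KO1 and below it in KO2 and in every WT library. Epha4, which can bind both ephrin classes, was at 35.6 and 36.3 TPM in KO, against 48.1, 47.1 and 43.1 TPM in WT (log2 -0.34 ± 0.08, adjusted p = 0.0223). All 3 of these calls were lost when any 1 WT library was left out, with adjusted p of 0.0747 to 0.0867 for Epha2, 0.0534 to 0.0778 for Epha1 and 0.054 to 0.102 for Epha4. Over all alternatives those p ranged from 9.27e-06 to 0.0867, 0.00114 to 0.0973 and 0.00298 to 0.132. In GENCODE M21, exons of Zyx lie opposite 6.01% of the exon bases of Epha1. Zyx averaged 757 TPM in KO and 622 TPM in WT (log2 change 0.31). How far reads of the shared bases entered the Epha1 values was not tested. Epha10 and Epha6, at no more than 1.36 TPM, did not pass.

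Of 4 EphB receptors tested 3 rose, 0 fell and 1 (Ephb2) did not pass, against 20.4% higher and 20.4% lower over all tested genes. Ephb6, an Eph protein without kinase activity, was at 41.9 and 29.4 TPM in KO1 and KO2, against 8.28, 9.15 and 8.45 TPM in WT. That is a log2 rise of 2.07 ± 0.16, 4.19-fold (adjusted p = 0.00212), and it held in all 15 alternatives. Ephb4, the main receptor of ephrin-B2, was at 99.7 and 65.6 TPM in KO, against 40.4, 41.2 and 39.9 TPM in WT. Its rise of 1.05 ± 0.18 (adjusted p = 0.00923) was lost without WT1 or WT3 (adjusted p = 0.0516 and 0.0502; range over its alternatives 2.01e-06 to 0.0516). Ephb3, a receptor kinase of epithelial boundaries, was at 32.2 and 34.9 TPM in KO, against 22.7, 22.0 and 20.4 TPM in WT (log2 0.65 ± 0.08, adjusted p = 0.00422). The Ephb3 call was lost with the replicate block in the edgeR model (adjusted p = 0.0531). Ephb2 was low and went opposite ways in the KO libraries, at 2.43 TPM in KO1 and 1.28 TPM in KO2, against 1.66 to 1.83 TPM in WT. It did not pass (adjusted p = 0.75, up to 0.958 over its alternatives). Without KO1 its log2 change was -0.43 and without KO2 it was 0.52.

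**Figure D4:**
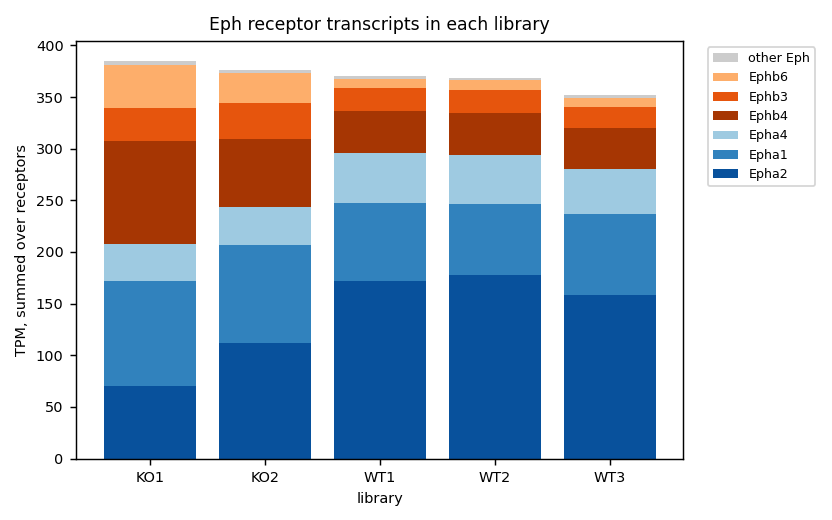
Stacked TPM of the Eph receptors in each library, KO libraries on the left, with EphA receptors in blue, EphB receptors in orange and the rest in grey. The bars are of similar height (352 to 385 TPM), while EphB receptors fill 176 and 131 TPM in KO1 and KO2 and 70.5 to 74.2 TPM in WT.

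Semaphorins of class 3, the secreted ones, were lower in KO. Of 4 tested 3 fell, 0 rose and 1 (Sema3b) did not pass, against 20.4% lower and 20.4% higher over all tested genes. The class summed to 144 and 195 TPM in KO1 and KO2, against 289, 300 and 284 TPM in WT. Sema3c (chromosome 5, 17574816 to 17730268), the most abundant semaphorin in these cells, was at 76.6 and 123 TPM in KO1 and KO2, against 195, 194 and 195 TPM in WT. The WT libraries were nearly level and the KO libraries were both lower and unlike one another (log2 -0.95 ± 0.20, adjusted p = 0.0187). Sema3f, a ligand of neuropilin-2, was at 66.6 and 71.0 TPM in KO, against 90.8, 102 and 85.4 TPM in WT (log2 -0.44 ± 0.10, adjusted p = 0.0202). Both calls were lost whichever WT library was left out, with adjusted p of 0.0695 to 0.074 for Sema3c and 0.0508 to 0.0807 for Sema3f (ranges over all alternatives 3.1e-06 to 0.074 and 0.00165 to 0.106).

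Sema3e, which can bind plexin-D1 without a neuropilin, had the deepest fall of all guidance genes. It was at 0.28 and 0.76 TPM in KO1 and KO2, against 3.41, 3.31 and 2.94 TPM in WT, a log2 change of -2.59 ± 0.39, 6.00-fold lower (adjusted p = 0.00714). The value rests on 77 counts over the KO and 695 over the WT libraries. The call held in all 15 alternatives, while the log2 change was -2.06 without KO1 and -3.43 without KO2. Sema3b, at 0.64 and 0.83 TPM in KO and 0.16 to 0.48 TPM in WT, did not pass (adjusted p = 0.149).

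Class 4 semaphorins, which are membrane proteins, split by gene. Of 5 tested 2 rose, 2 fell and 1 did not pass, against 20.4% higher and 20.4% lower over all tested genes. Sema4b, the most abundant of them, was at 30.4 and 33.0 TPM in KO, against 51.1, 52.3 and 45.6 TPM in WT. It fell by 0.62 on the log2 scale (SE 0.09, adjusted p = 0.00667) and did so in all 15 alternatives. Sema4a was at 14.9 and 16.8 TPM in KO, against 22.2, 22.7 and 19.7 TPM in WT (log2 -0.43 ± 0.11, adjusted p = 0.0267). Sema4g, a scarce member, was at 2.63 and 1.91 TPM in KO, against 0.49, 0.69 and 0.49 TPM in WT, and rose by 2.04 ± 0.27 (adjusted p = 0.00505). Sema4c, a ligand of plexin-B2, was at 11.2 TPM in KO1 and 3.72 TPM in KO2, against 2.29, 2.26 and 1.77 TPM in WT. The groups did not overlap, but KO1 was far above KO2 (log2 1.78 ± 0.44, adjusted p = 0.0271, and a log2 change of 0.83 without KO1). Sema4a and Sema4c lost their calls whichever WT library was left out (adjusted p = 0.0585 to 0.107 and 0.0897 to 0.101; ranges over all alternatives 0.00304 to 0.139 and 1.2e-05 to 0.101), and Sema4c also in the 3 fits to TPM. In GENCODE M21, 7.27% of the exon bases of Sema4c lie opposite D430040D24Rik. The deposited gene spans also put 2341 bases of Sema4c over Fam178b, listed on the same strand. Fam178b averaged 2.60 TPM in KO and 0.197 TPM in WT. How far reads of shared bases entered the Sema4c values was not tested. Sema4d, the ligand of plexin-B1, was at 12.9 and 8.05 TPM in KO and 7.82 to 9.76 TPM in WT, overlapping, and it did not pass with all libraries (adjusted p = 0.423). Its log2 change was -0.15 without KO1 and 0.55 without KO2, and its adjusted p reached 0.737 over all alternatives.

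The remaining semaphorins were low. In class 6, whose members pair with A-type plexins, 2 rose and 1 fell of 4 tested, all under 1.5 TPM. Of all tested genes 20.4% rose and 20.4% fell. Sema6a was at 0.40 and 0.39 TPM in KO, against 0.09, 0.10 and 0.06 TPM in WT (log2 2.22 ± 0.35, adjusted p = 0.00764), on 60 counts over KO and 19 over WT. The Sema6a call was lost with the replicate block in the edgeR model (adjusted p = 0.0609). Sema6c was at 0.69 and 0.63 TPM in KO, against 0.22, 0.24 and 0.24 TPM in WT (log2 1.55 ± 0.27, adjusted p = 0.00979). Sema6d went the other way, at 0.21 and 0.47 TPM in KO, against 1.02, 1.26 and 0.86 TPM in WT (log2 -1.64 ± 0.40, adjusted p = 0.025, and a log2 change of -2.30 without KO2). Sema6c lost its call without WT1 (adjusted p = 0.0522; range 0.00452 to 0.0863) and Sema6d whichever WT library was left out (adjusted p = 0.0627 to 0.0882; range 0.00128 to 0.146). Sema6b did not pass (0.10 and 0.13 TPM in KO, 0.21 to 0.49 TPM in WT; adjusted p = 0.057, 0.0456 without WT2, range 0.0456 to 0.461).

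Sema5a was at 8.18 and 7.04 TPM in KO, against 8.96, 8.91 and 7.93 TPM in WT, overlapping (log2 -0.16 ± 0.11, adjusted p = 0.282). Its log2 change was -0.29 without KO1 and -0.028 without KO2. Sema7a, a lipid-anchored semaphorin, was at 0.31 TPM in KO1 and 1.97 TPM in KO2, against 3.21, 4.07 and 2.29 TPM in WT. Both KO libraries lay below WT, and the log2 change of -1.40 ± 0.75 did not pass (adjusted p = 0.184). Without KO2 it was -3.42 and without KO1 it was -0.60, and the adjusted p reached 0.368 over its alternatives.

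Plexins, the semaphorin receptors, were mostly higher in KO. Of 6 plexins tested 5 rose, 0 fell and 1 (Plxna2) did not pass, against 20.4% higher and 20.4% lower over all tested genes. The family summed to 281 and 268 TPM in KO1 and KO2, against 204, 198 and 193 TPM in WT. Without WT1, WT2 or WT3 the count of plexins that rose was 2, 2 and 2 (7.62%, 8.81% and 8.68% of all tested genes). Plxnb2, the most abundant plexin, was at 147 and 154 TPM in KO, against 109, 106 and 99.7 TPM in WT (log2 0.55 ± 0.08, adjusted p = 0.00702). The Plxnb2 call was lost with the replicate block in the edgeR model (adjusted p = 0.120). Plxna3, an X-linked receptor for class 3 signals, was at 7.0 and 5.59 TPM in KO, against 2.71, 2.76 and 2.40 TPM in WT. It had the largest rise of the family (log2 1.32 ± 0.13, adjusted p = 0.00303), and the rise held in all 15 alternatives.

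The other plexins that rose did so by less or rested on less. Plxna1, a common partner of neuropilins, was at 79.6 and 77.5 TPM in KO, against 65.4, 62.2 and 64.1 TPM in WT (log2 0.32 ± 0.07, adjusted p = 0.0232). Plxnb1, the receptor of semaphorin 4D, was at 41.2 TPM in KO1 and 26.8 TPM in KO2, against 23.2, 23.2 and 22.4 TPM in WT (log2 0.58 ± 0.18, adjusted p = 0.0491). Plxnd1 was at 1.07 and 1.47 TPM in KO, against 0.74, 0.80 and 0.70 TPM in WT (log2 0.78 ± 0.21, adjusted p = 0.0352). Whichever WT library was left out, these calls were lost, with adjusted p of 0.102 to 0.117 for Plxna1, 0.136 to 0.143 for Plxnb1 and 0.10 to 0.123 for Plxnd1. Plxnd1 was also lost without KO2 (adjusted p = 0.0534), and Plxnb1 with DESeq2 size factors, with no count filter and in the 3 fits to TPM. Over all alternatives the p ranged from 0.000153 to 0.238, 8.69e-06 to 0.143 and 0.00335 to 0.184. In GENCODE M21, 10.7% of the exon bases of Plxna1 lie opposite Gm26811. Plxna2 went opposite ways in the KO libraries, at 5.02 TPM in KO1 and 2.83 TPM in KO2, against 3.55 to 3.75 TPM in WT. Its log2 change was -0.36 without KO1 and 0.49 without KO2. With all libraries it did not pass (adjusted p = 0.71, up to 0.913 over its alternatives).

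Nrp2, the neuropilin for class 3F signals, was at 13.2 and 11.4 TPM in KO, against 17.8, 19.6 and 17.2 TPM in WT, and fell by 0.50 on the log2 scale (SE 0.11, adjusted p = 0.0213). The call was lost whichever WT library was left out (adjusted p = 0.0611 to 0.0828; range over its alternatives 0.000671 to 0.0881). Nrp1, a co-receptor for semaphorin 3A and VEGF, was at 1.44 and 0.51 TPM in KO, against 2.13, 1.70 and 2.16 TPM in WT. It did not pass (adjusted p = 0.131, up to 0.276 over its alternatives). Its log2 change was -1.95 without KO1 and -0.41 without KO2.

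**Figure D5:**
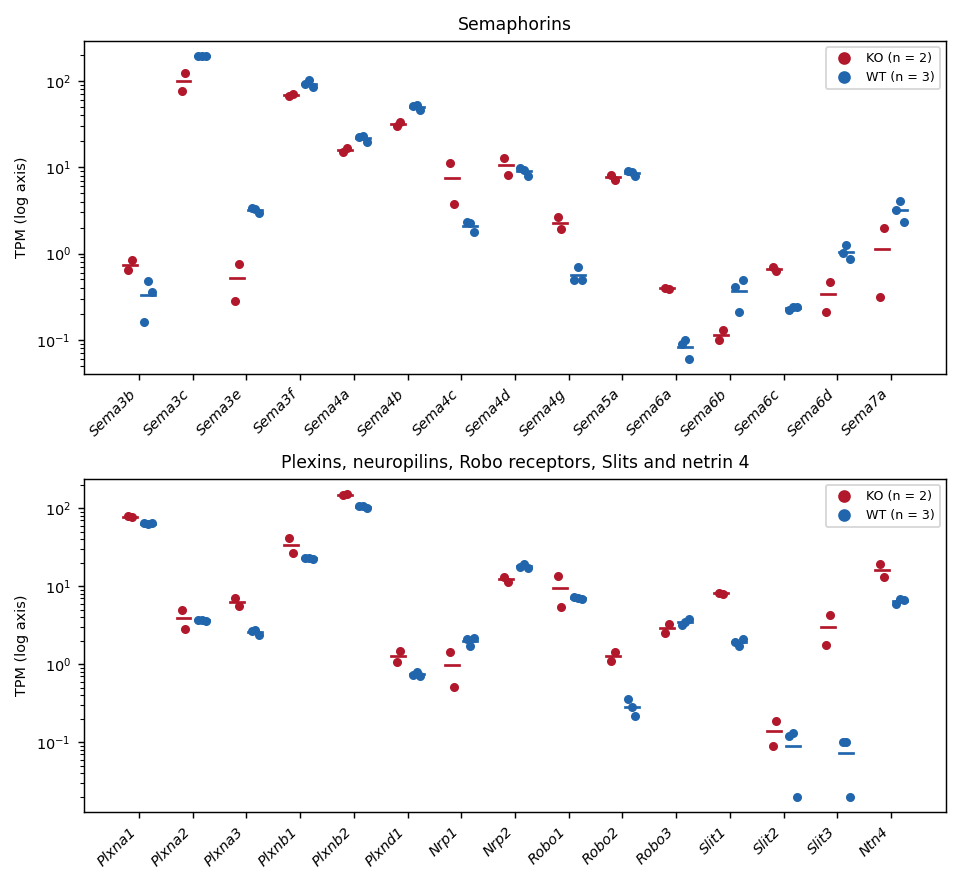
TPM on a log axis of the tested semaphorins (top) and of the tested plexins, neuropilins, Robo receptors, Slits and netrin 4 (bottom), with KO libraries in red left of WT libraries in blue. Points are libraries and bars group means (KO n = 2, WT n = 3). Sema3c and Sema3e lie lower in KO, while Slit1 (means 8.14 in KO and 1.92 in WT) and Slit3 lie higher without overlap.

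Of 3 Slit ligands 2 rose, where 20.4% of all tested genes did, and Slit3 had the largest rise of all guidance genes. Slit3 (chromosome 11, 35121456 to 35708507), a secreted Robo ligand, was at 1.77 and 4.30 TPM in KO1 and KO2, against 0.10, 0.10 and 0.02 TPM in WT. The log2 rise of 5.40 ± 0.62 (adjusted p = 0.00402) rests on 321 counts over the KO and 11 over the WT libraries, and it was 5.90 without KO1 and 4.64 without KO2. Slit1, best known from the nervous system, was at 8.30 and 7.98 TPM in KO, against 1.94, 1.72 and 2.10 TPM in WT. Its rise of 2.13 ± 0.12 (adjusted p = 0.00114) had the smallest p of all guidance genes, and the KO libraries were close together. Both calls held in all 15 alternatives. Slit2 was near the floor of detection (0.09 and 0.19 TPM in KO, 0.02 to 0.13 TPM in WT) and did not pass (adjusted p = 0.565).

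Robo receptors changed gene by gene. Robo2 was at 1.10 and 1.42 TPM in KO, against 0.36, 0.28 and 0.22 TPM in WT, a log2 rise of 1.97 ± 0.24 (adjusted p = 0.00421) that held in all 14 alternatives that tested it. Robo1, the most abundant of the family, was at 13.5 TPM in KO1 and 5.40 TPM in KO2, against 7.29, 7.07 and 6.96 TPM in WT, so 1 KO library lay above and 1 below. With all libraries it did not pass (log2 0.43 ± 0.37, adjusted p = 0.383). The change was 0.96 without KO2 and -0.39 without KO1, and the adjusted p reached 0.626 over its alternatives. Robo3 was at 2.52 and 3.30 TPM in KO and 3.20 to 3.84 TPM in WT and did not pass.

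Ntn4, a netrin of basement membranes that binds laminin, was the single netrin with enough counts. It was at 19.2 and 13.3 TPM in KO1 and KO2, against 5.96, 6.79 and 6.65 TPM in WT. The groups lay apart, with a log2 rise of 1.35 ± 0.18 (adjusted p = 0.00541) in the full fit and a call in all 15 alternatives.

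Partners of these families outside the symbol patterns were read from a list of receptors, co-receptors and signal transducers, of which the table lists 72. That list too was chosen with earlier results of these data known. Of 63 tested 21 rose (33.3%), 5 fell (7.94%) and 37 did not pass, against 20.4% higher and 20.4% lower over all tested genes. Without WT1, WT2 or WT3 the counts were 11, 10 and 12 higher (7.62%, 8.81% and 8.68% of all tested genes). In the same fits 3, 4 and 4 were lower (7.6%, 8.94% and 8.77% of all tested genes). The 10 with the smallest p are given here. L1cam, an adhesion molecule that can pair with neuropilins, was at 38.1 and 42.9 TPM in KO, against 13.3, 14.0 and 13.8 TPM in WT (log2 1.58 ± 0.08, adjusted p = 0.000848). Rgma, a ligand of the netrin receptor neogenin, was at 31.2 and 25.4 TPM in KO, against 5.91, 6.58 and 5.09 TPM in WT (log2 2.30 ± 0.15). The exchange factor Vav3, which acts below Eph receptors, rose by 1.40, the semaphorin 3 mediator Dpysl3 by 2.61 and the netrin-G gene Ntng2 by 2.11. The adaptor Nck2 and the plexin-B co-receptor Erbb2 rose by 0.63 and 0.67.

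Among the partners that fell, Ngef, the exchange factor ephexin that binds EphA4, was at 1.04 and 2.04 TPM in KO, against 16.9, 13.7 and 15.2 TPM in WT (log2 -3.29 ± 0.31, adjusted p = 0.00279, and a log2 change of -3.90 without KO2). Met, the receptor kinase that associates with plexin-B1, was at 34.7 and 29.5 TPM in KO, against 76.6, 73.0 and 73.8 TPM in WT (log2 -1.20 ± 0.10). Rap1b, a small GTPase on which plexins act, fell by 0.75. These 3 calls held in all 15 alternatives.

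Markers of other cell types were measured beside these changes, and their part in the results was not tested. Over all tested genes 20.4% were called higher and 20.4% lower. Of 14 tested fibroblast markers 7 rose and 0 fell. They summed to 426 and 211 TPM in KO1 and KO2, against 246 to 253 TPM in WT, with Postn at 10.5 and 4.29 TPM in KO and 0.03 to 0.13 TPM in WT. The sum was mostly Fbln2, which did not pass. Of 5 tested pericyte and smooth muscle markers 4 rose and 0 fell. Acta2 was at 1606 and 537 TPM in KO1 and KO2, against 219 to 251 TPM in WT. Cspg4 was at 6.20 and 10.8 TPM in KO1 and KO2, against 0.05 to 0.06 TPM in WT (log2 7.24, adjusted p = 0.00084). Notch3 was at 16.9 and 16.0 TPM in KO, against 5.38 to 6.48 TPM in WT, and Pdgfrb, which the fibroblast list also holds, rose as well. Of the same list Rgs5, Des, Abcc9 and Myh11 were at no more than 0.30 TPM in any library. Endothelial markers summed to 2.77 and 2.73 TPM in KO and 3.03 to 3.11 TPM in WT, with Tie1 higher, Kdr lower and Cdh5 and Cldn5 at no more than 0.19 TPM. Leukocyte markers summed to 73.3 and 69.7 TPM in KO and 41.7 to 56.8 TPM in WT, mostly through Cd68, which rose, with Ptprc, Adgre1 and Cd3e at no more than 0.07 TPM. Melanocyte markers summed to 8 and 11 TPM in KO and 5.83 to 7.03 TPM in WT, with Mitf higher. Schwann cell markers summed to 27.2 and 38.7 TPM in KO and 48.6 to 50.7 TPM in WT, nearly all of it Mbp, which fell. In the neuron list Tubb3 fell (17.3 and 5.35 TPM in KO, 65.3 to 86.6 TPM in WT) and Map2 rose (1.3 and 1.05 TPM in KO, 0.63 to 0.97 TPM in WT), with Rbfox3, Syt1, Elavl3 and Nefl at no more than 0.09 TPM.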

How the data were processed

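RNA of cultured mouse epidermal stem cells was measured in 2 KO and 3 WT libraries, grouped by title. The authors deposited 1 table of expected counts, TPM and FPKM per gene. Per the submitters' processing notes, RSEM 1.3.1 and GRCm38.p6 were used; RSEM shares reads among similar genes by probability, so the deposited expected counts can be fractional (32.1 to 34.0% of the values in a library). The deposited TPM sum to the same total in each library by the authors' scaling, and the deposited FPKM were not used. The aligner and the strand setting: not given in the sources used here.

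Rounded counts went into edgeR 4.0.16 under R 4.3.3 (filterByExpr by group, TMM factors 0.988 to 1.02, quasi-likelihood test, two-sided, no covariate), with Benjamini-Hochberg adjustment over 12957 genes and a threshold of 0.05. Log2 changes are from counts, and SEs from the test statistic; values per library are deposited TPM. No 2 libraries of a group agreed within counting noise (chi-square per degree of freedom 3.41 to 6.35 in WT, 107 in KO).

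The members, lists and tests were chosen with earlier results of these data known. Every member is accounted for; library values are given for each called member and for the most abundant of each family, and 10 partners were named by p. Other values were chosen after they were seen. The 15 alternatives were total count scaling, DESeq2 size factors, DESeq2 1.42.0, limma-voom (limma 3.58.1) with a separate spread per group, no count filter, a mean of at least 50 counts, the replicate block, log2(TPM + 1) with and without a mean TPM of at least 1, log2(TPM + 0.1), and each library left out. Exon overlaps use GENCODE M21 of the same build, and of the 62 genes 54 had a RefSeq promoter window.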

Additional observations from a re-analysis of the deposited data

How the results depend on the processing

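The 22 higher and 9 lower guidance genes kept their counts within 1.5 times under total count scaling, DESeq2 size factors, the DESeq2 test, both count filters and the 3 TPM fits. With a separate spread per group the members lower numbered 4, and among all genes 1625 rose and 1567 fell. With the replicate block the members numbered 11 higher and 2 lower, the partners 7 and 3 and all genes 804 and 794. Deviations of same-numbered libraries correlated at 0.0458. As KO1 and KO2 differed far more than WT1 and WT2, this value cannot exclude a shared batch. The labels do not say that the numbers 1 and 2 mark such a batch. With 1 library left out, members numbered 14 to 27 higher and 2 to 14 lower, partners 10 to 29 and 3 to 15, and all genes 980 to 3975 and 977 to 4093; without a KO library the lone KO library was taken to vary as the WT libraries do. Angptl4 was at -2.51 (log2) and did not pass with a separate spread, and at -2.74 to -2.38 with 1 library left out. With 1 library left out, signs turned, and log2 changes ran from -0.19 (without WT1) to 0.39 for Epha6, -0.43 (without KO1) to 0.52 for Ephb2, -0.15 (without KO1) to 0.55 for Sema4d, -0.36 (without KO1) to 0.49 for Plxna2, -0.39 (without KO1) to 0.96 for Robo1, -0.080 (without KO2) to 1.02 for Slit2, and -0.084 to 0.032 for Efnb1 (above 0 without KO2, at 0.027, or without WT1), which was also 0.0059 with the stricter filter; none of these passed in the full fit. The cause was not tested. Of the values of the 47 tested members and the 10 named partners over these alternatives, 736 kept their direction and side of the threshold, 79 lost a call, 10 gained one and 9 reversed. Genes under about 1 TPM rest on few counts.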
